A study of Macaca fascicularis with 44 samples.

Results

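The 6 genes of the NOTCH pathway described here were followed across the cell classes and days of cultured cynomolgus monkey embryos (Macaca fascicularis): the ligands DLL1, DLL3 and JAG1, the receptor NOTCH1, and the target genes HES1 and HEY1. They were taken by name from a count table of 21834 genes, and all 6 have a row in it. HES1 had a count in 2712 of 3682 cells, HEY1 in 847, DLL3 in 708, JAG1 in 692, DLL1 in 226 and NOTCH1 in 72.

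NOTCH signalling passes between neighbouring cells. A membrane ligand of the Delta or Jagged family on one cell binds a NOTCH receptor on another, the receptor is cut by an ADAM protease and by gamma-secretase, and its freed intracellular part joins RBPJ and Mastermind proteins in the nucleus to switch on HES and HEY genes, which code for transcriptional repressors. In the gastrulating embryo the pathway is known for the segmentation clock of the presomitic mesoderm and for holding neural progenitors back from differentiation, and Delta ligands and HES genes are often read as its ligand and output side. DLL3 differs from DLL1 in that it acts mainly inside the cell and does not activate receptors in trans. HES1 can also be driven by other pathways, so its RNA alone does not measure NOTCH activity.

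RNA of single cells was profiled in 44 libraries from 9 embryos, in embryos made by intracytoplasmic sperm injection and grown in vitro from the expanded blastocyst. All are labelled WT, none received a treatment in the labels, and extraembryonic tissue was dissected away before TrypLE digestion and dissociation into single cells. Libraries came from E16 (7 libraries, 2 embryos), E18 (5), E20 (6), E21 (5), E22 (6), E23 (6), E24 (2) and E25 (5), with 1 embryo for each day after E16, so that after E16 a day cannot be told apart from its embryo. Libraries 26 and 27 have a title and a time label that name different days, and their 149 cells enter the pooled class levels, the shares of cells and the levels per embryo of the annotation, but no day or library comparison. The authors' annotation gives each cell 1 of 12 classes, whose names are used here as deposited: EPI, PS and derivative, Mesoderm, Neural ectoderm, Non-neural ectoderm, Endoderm, EXMC, Extraembryonic Mesoderm, CTB, EVT, STB and Blood cells. Despite the dissection, most cells are of extraembryonic classes: EXMC had 1185 cells, EVT 566, CTB 549, Extraembryonic Mesoderm 474 and STB 111.

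Libraries held 22 to 96 cells and 4393315 to 30568931 counts, and the median cell had 110457.5 counts, with a range from 871 to 2831708. Levels below are CPM, the gene's share of the summed counts of the same cells scaled to 1e6. A pooled class level is given with an exact Poisson 95% interval that covers counting error only. The same 96 well barcodes recur in the libraries, each in more than 1 of them, and no pair of cells had identical counts. Marker lists ranked highest in the class of the same name for EPI, PS and derivative, Endoderm, Neural ectoderm and Blood cells. For 2 of these the lead is thin. The Neural ectoderm list had 2 of 5 genes at 0 in its class and summed to 98.3 CPM, against 90.3 CPM in PS and derivative. The blood list had 2 of 3 genes in the count table, and 1 of the 2 was at 0 in Blood cells. It summed to 68.2 CPM there, where the endothelial list summed to 1402 CPM. The list for EXMC and Extraembryonic Mesoderm ranked these classes 1 and 2, and the trophoblast list ranked STB, CTB and EVT 1 to 3. The Non-neural ectoderm list was second in its own class behind STB. The Mesoderm list, which is made of early and paraxial mesoderm genes, ranked only 5 of 12 in the class named Mesoderm (38.4 CPM summed, against 267 CPM in PS and derivative), so that this class is called by its deposited name without a further reading.

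DLL1 and DLL3 were both high in PS and derivative, and both had their lowest pooled levels in CTB, EVT and STB. Single embryos stood higher, with DLL3 at 20.8 CPM in the STB cells of E16-2 and 7.57 CPM in the EVT cells of E25. DLL3 had 1 clear peak. It stood at 66.5 CPM (63.6 to 69.6) in PS and derivative, the class marked by TBXT and MIXL1, and next at 27.2 CPM (24.7 to 29.9) in EPI. Endoderm (12.2 CPM), Blood cells (10.5 CPM), EXMC (10.2 CPM), Neural ectoderm (8.70 CPM), Mesoderm (8.53 CPM) and Extraembryonic Mesoderm (8.45 CPM) followed, and the intervals of these neighbours overlapped. Non-neural ectoderm held 3.33 CPM, STB 2.89 CPM, EVT 1.497 CPM and CTB 1.20 CPM.

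The 7 libraries with at least 10 PS and derivative cells gave DLL3 levels of 53.2 CPM at the lowest, 71.0 CPM at the median and 116 CPM at the highest. All 7 lay above the highest library of EXMC (28.97 CPM) and of Mesoderm (14.3 CPM). In the second E16 embryo both classes could be read within the same libraries. There DLL3 was 61.7 CPM in PS and derivative against 8.04 CPM in EXMC in library 5, 116 against 28.97 CPM in library 6, and 81.3 against 18.9 CPM in library 7. Both E16 embryos showed the peak, with 64.1 CPM (60.9 to 67.4) in E16-1 and 79.0 CPM (71.2 to 87.4) in E16-2. Within EPI, DLL3 was 42.1 CPM in the E18 embryo, 25.4 CPM at E21 and 16.8 CPM at E25, and these 3 values rest on 23, 15 and 15 cells.

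DLL1, a ligand that activates receptors on neighbouring cells, was lower and rested on fewer cells. Its pooled level was 20.4 CPM (17.2 to 24.02) in Neural ectoderm, 16.1 CPM (14.6 to 17.6) in PS and derivative and 14.7 CPM (12.8 to 16.7) in EPI, and the interval of PS and derivative overlapped both others, while those of Neural ectoderm and EPI did not overlap. The EPI level is not shared by its embryos: DLL1 was 2.72 CPM at E18, 1.154 CPM at E21 and 0 at E25 in the 3 embryos with at least 10 EPI cells, and most of the counts came from the few EPI cells of the other embryos. Endoderm (6.35 CPM), Non-neural ectoderm (5.03 CPM), Blood cells (4.72 CPM), Extraembryonic Mesoderm (3.28 CPM), Mesoderm (2.36 CPM) and EXMC (1.83 CPM) came next, and EVT (0.743 CPM), CTB (0.557 CPM) and STB (0.117 CPM) came last. A single cell supplied 65.7% of the DLL1 counts of Neural ectoderm, and without it the class fell to 7.11 CPM, below PS and derivative at 14.2 CPM without its own top cell. In Mesoderm a single cell supplied 67.2% of the counts and in EPI 39.4%.

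In PS and derivative the DLL1 signal was spread more evenly. All 7 libraries had it, from 5.23 CPM over a median of 11.3 CPM to 26.7 CPM, and 28.5% of the 228 cells held a DLL1 count. The 3 Neural ectoderm libraries, all from the E22 embryo, gave 5.67, 44.7 and 8.89 CPM. With libraries of at least 5 cells, Neural ectoderm exceeded Mesoderm in 5 of 5 libraries of E22, and Extraembryonic Mesoderm and Non-neural ectoderm in 4 of 5 each.

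JAG1, a Jagged ligand, was spread over the embryonic and mesenchymal classes with no clear peak. It ranged from 10.2 CPM in Endoderm to 15.7 CPM in Neural ectoderm over 8 of the 12 classes, with 14.5 CPM in PS and derivative, 14.4 CPM in Mesoderm, 12.9 CPM in EPI, 12.1 CPM in EXMC, 11.3 CPM in Extraembryonic Mesoderm and 11.2 CPM in Non-neural ectoderm. STB (4.06 CPM), EVT (3.91 CPM) and CTB (1.66 CPM) were lower. Blood cells had the highest pooled level, 36.04 CPM, but this class has 17 cells and 1 of them held 87.5% of the counts, without which the level was 5.66 CPM. Mesoderm libraries of E22 ran from 9.71 to 31.4 CPM, and the single E21 library had 0.890 CPM. The pooled levels were not shared by all embryos. Mesoderm had 0.244 CPM at E18 and 0.776 CPM at E21 against 19.9 CPM at E22. EPI had 2.72 CPM at E18, 6.34 CPM at E21 and 30.8 CPM at E25. PS and derivative had 16.6 CPM in E16-1 and 5.25 CPM in E16-2.

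Inside EXMC, JAG1 was 23.9 CPM in the E23 embryo and 24.99 CPM in the E25 embryo, and between 1.45 and 10.1 CPM in the other 6 embryos. Among the fine clusters, cluster 4 (27.4 CPM, mostly E25 cells) and cluster 9 (26.2 CPM, mostly E23 cells) stood above the other 5 EXMC clusters (4.28 to 11.9 CPM). Cluster 11 was also mostly of E25 cells (95 of 142) and had 11.9 CPM, so the E25 cells were not uniformly high. The libraries overlapped, with 2.63 to 42.6 CPM at E23, 7.35 to 41.3 CPM at E25 and 4.93 to 12.5 CPM at E16.

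**Figure D1:**
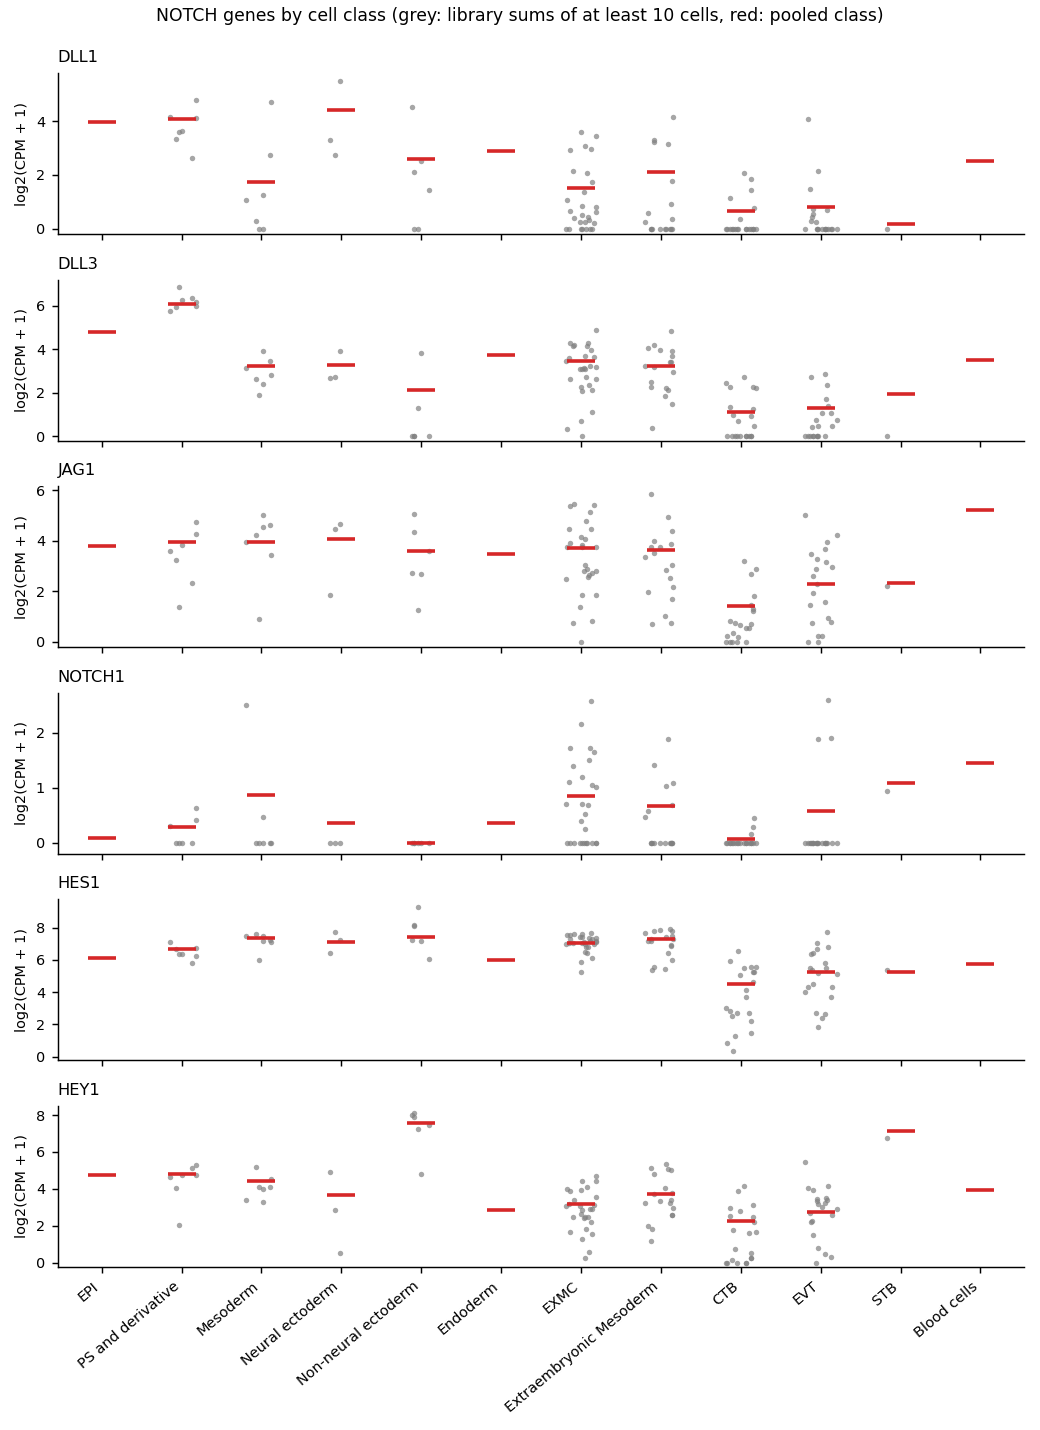
Levels of the 6 genes by deposited class, as log2(CPM + 1) on the vertical axis. Grey points are library sums of at least 10 cells and red bars the level of all cells of the class. DLL3 peaks in PS and derivative (66.5 CPM), HEY1 in Non-neural ectoderm (186 CPM) and STB (137 CPM), and CTB holds the lowest HES1 (22.1 CPM).

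NOTCH1, the receptor among the 6, was close to undetected. The table holds 291 NOTCH1 counts in all, 32 of the 72 positive cells had a single count, and no class exceeded 1.72 CPM. In Non-neural ectoderm no cell had a count, with an upper bound of 0.251 CPM by the exact Poisson interval. NOTCH1 did not pass the filter on low counts in any of the day trends, and its class estimates are not given because in several classes the libraries were at 0. NOTCH2 was 67.1 CPM in EXMC, 58.9 CPM in EVT and 48.8 CPM in Extraembryonic Mesoderm, and 8.57 CPM in EPI. NOTCH3 was 29.7 CPM in Neural ectoderm, 22.4 CPM in Non-neural ectoderm and 20.8 CPM in Mesoderm, and 2.79 CPM in CTB. NOTCH4, known from endothelium, was 12.01 CPM in Blood cells and at most 1.02 CPM elsewhere.

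The target HES1 was found in every class, and PS and derivative, highest in DLL3, was only the sixth class in HES1. Non-neural ectoderm (170 CPM), Mesoderm (164 CPM), Extraembryonic Mesoderm (155 CPM), Neural ectoderm (138 CPM) and EXMC (131 CPM) led. PS and derivative had 100 CPM (96.6 to 104), EPI 67.1 CPM, Endoderm 63.3 CPM and Blood cells 52.1 CPM. STB (36.6 CPM), EVT (36.4 CPM) and CTB (22.1 CPM) had the lowest pooled levels. The low place of EVT rests on the E20 embryo (8.13 CPM), since EVT had 44.8 to 106 CPM in the other 5 embryos with at least 10 of its cells. Within E18 the order turned, with EVT at 44.8 CPM above EPI (29.9 CPM) and Endoderm (17.8 CPM), and likewise within E21, at 71.1 against 31.7 and 39.6 CPM. Without the top cell of each class Mesoderm led at 158 CPM. The spread over libraries was wide where cells were few. The 6 Non-neural ectoderm libraries ran from 65.5 over a median of 211 to 629 CPM, so that the library ranges of the leading 5 classes overlap, and in E22 Non-neural ectoderm exceeded Mesoderm in only 2 of 6 libraries.

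HEY1, the second target, separated the classes much more sharply than HES1. It stood at 186 CPM (179 to 193) in Non-neural ectoderm and 137 CPM (133 to 142) in STB. The third class, PS and derivative, had 27.4 CPM, followed by EPI (25.8 CPM), Mesoderm (20.2 CPM), Blood cells (14.2 CPM), Extraembryonic Mesoderm (12.2 CPM), Neural ectoderm (11.8 CPM), EXMC (7.98 CPM), Endoderm (6.35 CPM), EVT (5.66 CPM) and CTB (3.75 CPM). Neither peak rested on 1 cell: the top cell held 8.60% of the counts in Non-neural ectoderm and 11.4% in STB.

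Non-neural ectoderm showed the HEY1 peak in both embryos that hold it, 161 CPM (151 to 171) in E22 and 208 CPM (198 to 218) in E23. Its libraries gave 27.4 CPM in E22 library 31 and 148, 252, 272, 175 and 233 CPM in the 5 libraries of E23. With libraries of at least 5 cells, Non-neural ectoderm exceeded Mesoderm in 6 of 6 libraries of E22, Extraembryonic Mesoderm in 6 of 6 and Neural ectoderm in 4 of 5. The neighbouring Neural ectoderm cells of the same embryo had 12.2 CPM, while the HES1 intervals of the same cells overlapped (149 CPM in Non-neural and 139 CPM in Neural ectoderm).

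In STB, HEY1 differed widely among embryos. It was 6.00 CPM (3.36 to 9.89) in E16-2, 107 CPM in E20, 124 CPM in E23, 368 CPM in E24 and 58.5 CPM in E25, from 11 to 30 cells each. Most of the E24 cells come from library 27, whose labels disagree on the day, and without libraries 26 and 27 the pooled STB level was 129 CPM. DLL3 in the same cells was 20.8 CPM in E16-2, 2.02 CPM in E20 and 0 in E23, E24 and E25, where the upper bounds of the exact Poisson intervals were 0.853, 1.00 and 1.63 CPM. CTB and EVT, which share the trophoblast markers with STB, had HEY1 of at most 23.4 CPM in each embryo.

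Counts of a ligand and of a target in the same cell were compared after thinning each cell to 20000 counts, which left out 370 of 3682 cells (172 of them EVT). PS and derivative had the largest share of cells with a ligand count (DLL1, DLL3 or JAG1), 71.4% of 203 cells (exact binomial interval 64.7% to 77.5%). EPI had 48.7%, Neural ectoderm 47.4%, Blood cells 41.2% and Endoderm 38.3%, while Extraembryonic Mesoderm (22.4%), EXMC (20.5%), Mesoderm (18.96%) and Non-neural ectoderm (17.4%) were lower. STB had 10.7%, EVT 8.88% and CTB 4.95%. A target count (HES1 or HEY1) was found in 89.6% of Non-neural ectoderm cells (82.5% to 94.5%), 75.4% of Mesoderm, 75.3% of Extraembryonic Mesoderm, 73.7% of EXMC, 73.7% of Neural ectoderm and 68.5% of PS and derivative cells, and in 25.1% of CTB cells.

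PS and derivative was the 1 class of 12 in which ligand-positive cells were not outnumbered by target-positive cells, and the intervals of these shares overlapped. The order depended on depth, since at 40000 counts per cell the ligand share of this class was 75.8% and the target share 82.6%. In it 47.8% of cells held both, 23.6% a ligand without a target and 20.7% a target without a ligand. Cells with a ligand but no target made up 20.5% of EPI and 21.7% of Endoderm, and 1.74% of Non-neural ectoderm (0.211% to 6.14%) and 2.37% of Mesoderm. DLL1 and DLL3 were found together in 7.39% of PS and derivative cells and in 3.85% of EPI cells, and in no CTB or EVT cell. HES1 and HEY1 were found together in 38.3% of Non-neural ectoderm cells, 20.2% of PS and derivative and 16.5% of STB cells. Without thinning, the shares rose with depth (82.0% of PS and derivative cells with a ligand, 83.3% with a target), and CTB, which at a median of 169543 counts per cell was deeper than PS and derivative at 98378.5, still had the second lowest ligand share, 15.8% against 15.7% in EVT.

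**Figure D2:**
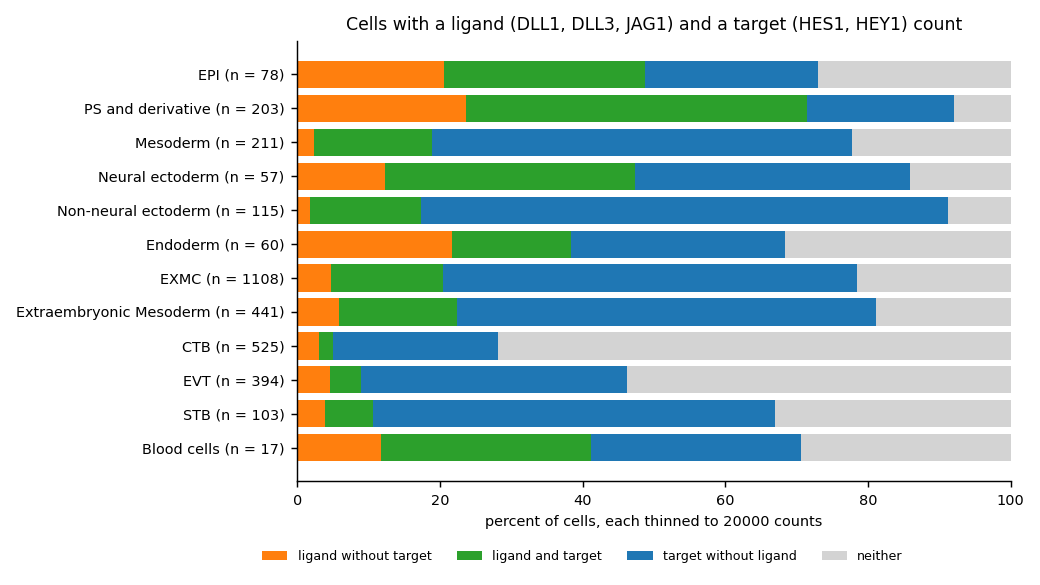
Shares of cells, in percent, with a ligand count only, with both, with a target count only and with neither, per class, after each cell was thinned to 20000 counts. The ligand share (DLL1, DLL3 or JAG1) is largest in PS and derivative (71.4%), and 73.9% of Non-neural ectoderm cells hold a target without a ligand.

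The class contrasts set each class against the mean of the other 7 within libraries, for the 8 classes that had at least 10 cells in at least 3 libraries, with 111 library sums from 41 libraries. The test was edgeR's quasi-likelihood test with Benjamini-Hochberg adjustment over 14689 genes and 8 classes together. The classes were made by the authors from the same expression values, so these p-values describe the classes and are not an independent test of them, and libraries of 1 embryo are counted as independent. Of the 48 combinations of gene and class, 18 passed, 9 in each direction. In CTB 5 of 6 genes were lower, where 30.7% of all genes passed in either direction and 14.5% as lower. In EVT 3 of 6 were lower, where 27% of all genes passed in either direction and 12% as lower. The shares that follow are of either direction. In EXMC 2 were higher and 1 lower (25.2%), in Extraembryonic Mesoderm 3 were higher (22%), in Mesoderm 2 were higher (7.1% of all genes), in Non-neural ectoderm 1 was higher (7.53%), in PS and derivative 1 was higher (3.1%) and in Neural ectoderm none passed (5.79%).

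DLL3 was higher in PS and derivative by 3.37 ± 0.52 (log2 difference ± SE, edgeR adjusted p = 7.3e-08). With library as a term, this difference comes from libraries 5, 6 and 7 of E16-2, since libraries 1 to 4 of E16-1 hold a sum of PS and derivative alone. It was lower in CTB by 2.10 ± 0.44 and in EVT by 1.64 ± 0.48 on the same scale, and higher in EXMC at 0.97 ± 0.29. Without the E16 libraries, or without those of E20, the EVT difference no longer passed (edgeR adjusted p = 0.0977 and 0.0657). DLL1 was lower in CTB, at -2.31 ± 0.76 (edgeR adjusted p = 0.0238), a call that was lost with DESeq2 (adjusted p = 0.1) and without E16 (0.051), and the difference shrank to -0.43 without E20. In PS and derivative DLL1 had a difference of 1.85 ± 1.39 and in Neural ectoderm of 1.62 ± 1.09, and neither passed (edgeR adjusted p = 0.479 and 0.4).

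JAG1 was lower in CTB, at -3.30 ± 0.48 (edgeR adjusted p = 2.03e-08), and higher in Mesoderm, at 1.94 ± 0.54 (0.00509), and Extraembryonic Mesoderm, at 0.96 ± 0.36 (0.0485). Among the 4 classes of E22 alone the JAG1 difference of Extraembryonic Mesoderm turned to -0.57 and did not pass, and that of Mesoderm was 0.60 and did not pass. DESeq2 did not call JAG1 in Mesoderm either (adjusted p = 0.0731).

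HES1 was lower in CTB (-2.43 ± 0.25, edgeR adjusted p = 1.48e-12) and EVT (-1.14 ± 0.25, 0.000276), and higher in Extraembryonic Mesoderm (1.38 ± 0.22, 5.08e-07) and EXMC (0.68 ± 0.20, 0.00855). Without E20 the EVT difference was -0.74 and did not pass (edgeR adjusted p = 0.0577). In E22 alone HES1 in Extraembryonic Mesoderm was 0.41 and did not pass (0.107).

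HEY1 was higher in Non-neural ectoderm by 2.74 ± 0.38 (edgeR adjusted p = 8.97e-09) and lower in CTB (-2.79 ± 0.36), EVT (-1.50 ± 0.36) and EXMC (-1.25 ± 0.29). The EVT call was lost without E20 (-0.99, edgeR adjusted p = 0.126), and the EXMC call with DESeq2 (-0.97, adjusted p = 0.0509). It passed as higher in Mesoderm (1.62 ± 0.50) and Extraembryonic Mesoderm (0.99 ± 0.31) as well. In E22 alone, a fit with 4 classes, 1 embryo and sums of at least 5 cells, the differences were -0.65 and -1.43. That of Extraembryonic Mesoderm passed as lower (edgeR adjusted p = 0.0253), opposite to the main fit. Without E20 neither class passed. The Non-neural ectoderm difference was 3.37 ± 0.34 in E22 alone.

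**Figure D3:**
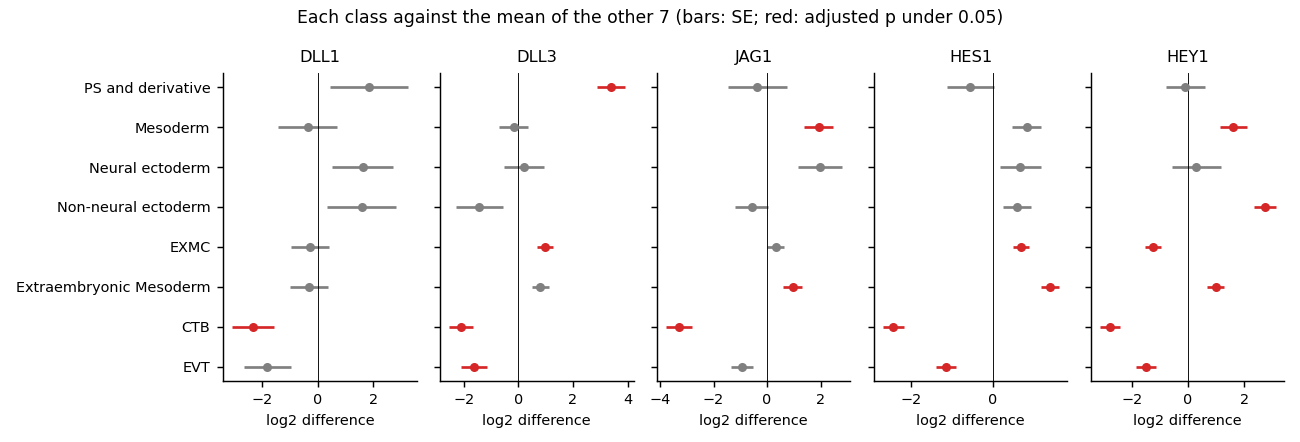
Log2 difference between each of 8 classes and the mean of the other 7, from the edgeR fit with library as a block; bars are SE and red marks an adjusted p under 0.05. CTB lies left of 0 in all 5 genes shown, DLL3 is highest in PS and derivative (3.37) and HEY1 in Non-neural ectoderm (2.74).

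HES1 was low in the E20 embryo in the 4 classes compared by day. In EXMC the 3 E20 libraries had 37.4, 57.4 and 69.8 CPM, and the 25 libraries of other days 84.4 over a median of 143 to 200 CPM, with no overlap. In EVT the 6 E20 libraries ran from 2.54 over 5.41 to 19.2 CPM and the 15 others from 14.9 over 44.9 to 211 CPM. In Extraembryonic Mesoderm they ran from 41.1 over 55.1 to 170 CPM against 114 over 167 to 239 CPM in 12 others. In CTB they ran from 0.269 over 2.75 to 5.43 CPM against 1.40 over 31.8 to 94.6 CPM in 15 others, and there the 3 E18 libraries (1.40 to 6.02 CPM) were as low as E20.

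FOS, an immediate early gene that responds to handling and was chosen after the values were seen, had a median over libraries at E20 of 5144 CPM in EXMC against 1855 CPM on other days, 6159 against 2030 CPM in Extraembryonic Mesoderm, 4246 against 1606 CPM in CTB and 3756 against 2264 CPM in EVT. High FOS was also found with high HES1: the EVT libraries of E24 had 6683 and 4577 CPM FOS with 112 to 129 CPM HES1, and the 4 EXMC libraries of E18 had 4228 to 4672 CPM FOS with 84.4 to 200 CPM HES1. Its part in the HES1 levels was not tested, and the E20 day and its embryo cannot be told apart. The fine clusters place the low cells: CTB cluster 12 (2.43 CPM HES1, 137 of 138 cells from E20) and EVT cluster 19 (3.22 CPM, 84 of 84 cells from E20) against 24.4 and 54.8 CPM in the other CTB clusters and 28.7 to 97.7 CPM in the other EVT clusters. DLL3 in the EXMC libraries of E20 was 1.17, 3.77 and 0.618 CPM, inside the range of the other days (0 to 28.97 CPM). Summed per embryo, however, DLL3 in EXMC was lowest at E20 (1.82 CPM, 1.20 to 2.65), below E24 as the next (5.26 CPM, 3.98 to 6.81). Over all cells, too, E20 had the lowest day mean of DLL3 (1.33 CPM). HEY1 in the EXMC libraries of E20 was 1.95, 14.1 and 5.26 CPM, inside the range of the other days (0.181 to 24.8 CPM).

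**Figure D4:**
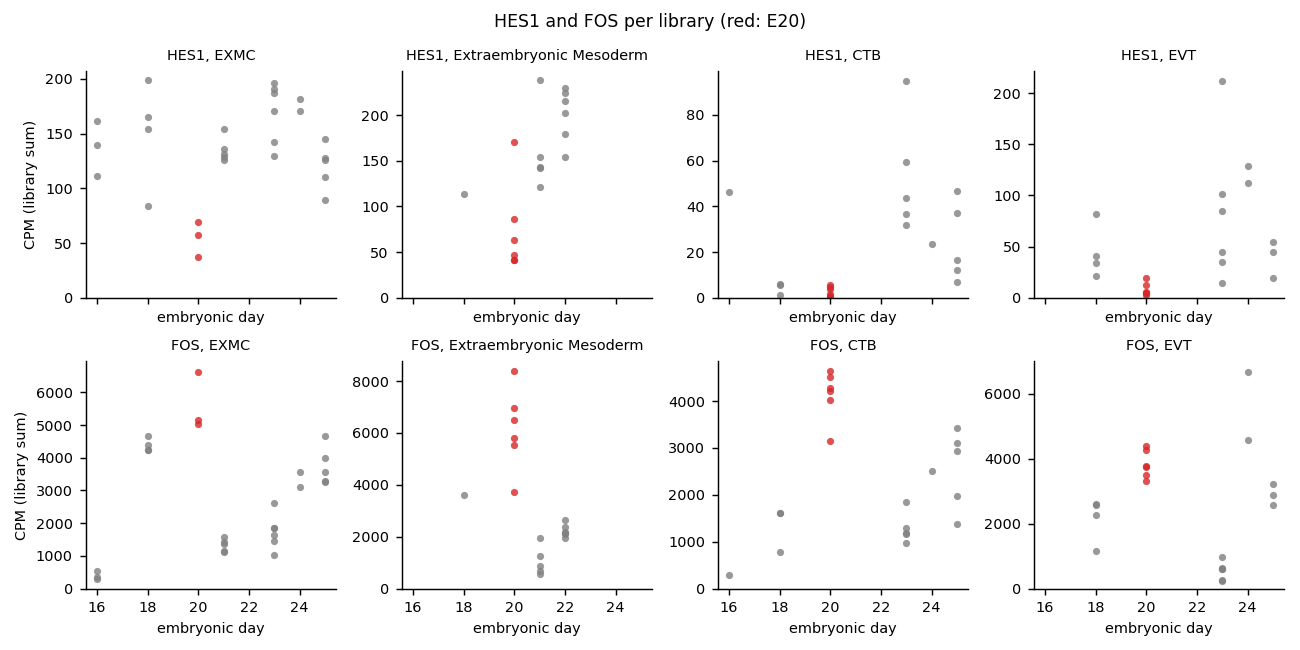
HES1 (top) and FOS (bottom) in CPM per library sum of at least 10 cells against embryonic day, for EVT, CTB, Extraembryonic Mesoderm and EXMC, with E20 in red. HES1 of the 3 E20 libraries of EXMC (37.4 to 69.8 CPM) lies below the 25 other libraries, and FOS of these 3 (5025 to 6633 CPM) lies above them.

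Day trends were fitted as a log2 slope per day with edgeR's quasi-likelihood test over all genes. Over all cells of 42 libraries, DLL3 was the only one of the 5 tested members that passed, where 18.5% of 13174 genes passed. It fell by 0.30 ± 0.06 per day (edgeR adjusted p = 0.000153). The E16 libraries had 14.5 over 48.8 to 68.8 CPM and those of E25 3.70 over 6.88 to 8.08 CPM, and the 2 days did not overlap. This slope moved with 1 day and 1 class: E16 holds 226 of the 228 PS and derivative cells, which were 90.9% of the cells of E16-1, and without E16 the slope was -0.07 and did not pass (edgeR adjusted p = 0.648). Summed per embryo it was -0.32 and did not pass (edgeR adjusted p = 0.405). Fewer DLL3-positive cells and less DLL3 per cell cannot be told apart in such sums. Within EXMC, in 28 libraries, the slope was -0.11 ± 0.07 and did not pass (edgeR adjusted p = 0.544).

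The other all-cell slopes were -0.19 ± 0.09 for DLL1, 0.05 ± 0.05 for JAG1, 0.04 ± 0.04 for HES1 and 0.08 ± 0.06 for HEY1, and none passed (edgeR adjusted p from 0.141 to 0.572). Without E16 the JAG1 slope was 0.29 and passed (edgeR adjusted p = 0.0255).

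Within classes no member passed. Extraembryonic Mesoderm had 2.12% of all its tested genes pass, EXMC 1.73%, CTB 3.36% and EVT 6.88%. The HES1 slope was 0.36 ± 0.13 in Extraembryonic Mesoderm, 0.23 ± 0.12 in EVT, 0.20 ± 0.12 in CTB and 0.03 ± 0.03 in EXMC (edgeR adjusted p = 0.166, 0.258, 0.376 and 0.814). The call of HES1 depended on thin groups of libraries. In CTB it passed at 0.61 without E16, which there is 1 library (edgeR adjusted p = 0.0137), and at 1.10 with libraries of at least 20 cells (0.0017). In EVT it passed at 1.11 with at least 20 cells (0.00023), and in Extraembryonic Mesoderm at 0.71 without library 41, the only E18 library (0.00525). HEY1 in EVT was 0.38 ± 0.15 (edgeR adjusted p = 0.114) and passed with DESeq2 at 0.40 (adjusted p = 0.0309). JAG1 in EXMC had a slope of 0.19 ± 0.08 and did not pass (0.271).

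Of the 43 other pathway genes on the list, 41 are in the count table. Among the ligands, DLL4 (25.5 CPM) and JAG2 (17.6 CPM) were highest in Blood cells, which also led the endothelial markers and whose 17 cells limit the reading. DLK1, a non-canonical ligand made by mesenchyme and known as an imprinted gene, was 1766 CPM in EXMC and 929 CPM in Extraembryonic Mesoderm, with differences from the other classes of 3.10 ± 0.37 and 2.74 ± 0.39 (edgeR adjusted p = 2.13e-10 and 3.87e-08). It was 19.3 CPM in the EXMC cells of the E16 embryo and 784 to 5276 CPM in those of the 7 later embryos. Its slope was positive in all cells (0.54 ± 0.09, edgeR adjusted p = 3.7e-05), EXMC (0.31 ± 0.08, 0.0493), CTB (0.66 ± 0.10, 0.000617) and EVT (0.80 ± 0.12, 0.00028). These slopes count libraries of 1 embryo as independent, and summed per embryo edgeR called 0 genes, DLK1 included, in all cells, EXMC and CTB (1543, 481 and 798 genes at an unadjusted p under 0.05). EXMC cluster 6, which holds 184 E16 cells of 202, had 45.7 CPM against 1357 to 2948 CPM in the other 6 EXMC clusters.

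Among the receptors, NOTCH2 was higher in EXMC (1.20 ± 0.17), EVT (0.98 ± 0.20) and Extraembryonic Mesoderm (0.58 ± 0.19) and lower in CTB (-0.82 ± 0.21). NOTCH3 was lower in CTB (-2.79 ± 0.52) and EVT (-1.57 ± 0.44) and higher in Neural ectoderm (1.88 ± 0.69, edgeR adjusted p = 0.0461). The Neural ectoderm call rests on 3 libraries of 1 embryo. In E22 alone its difference was 0.48 and did not pass (edgeR adjusted p = 0.551). The day slope of NOTCH3 in EVT was 0.55 ± 0.13 (edgeR adjusted p = 0.00896). This slope rests on 5 embryos of 5 days, with libraries of 1 embryo counted as independent. NOTCH3 was 26.3 CPM in EVT cluster 18 (36 of 87 cells from E25) against 0.746 to 3.03 CPM in the other EVT clusters. The part of cluster shares in the slope was not tested. CTB and EVT, both low in the pooled levels of HES1 and of the 3 ligands, differed in NOTCH2. Of these ligands only DLL3 passed as lower in EVT, and without E20 neither DLL3 nor HES1 passed there. The fringes glycosylate NOTCH receptors and shift their ligand preference. Of these, RFNG was higher in Extraembryonic Mesoderm (0.97 ± 0.29) and EXMC (0.74 ± 0.27) and lower in CTB (-1.08 ± 0.34). In E22 alone the Extraembryonic Mesoderm difference of RFNG was 0.37 and did not pass (edgeR adjusted p = 0.635). LFNG, the fringe of the segmentation clock, had 7.84 CPM in Neural ectoderm and 5.28 CPM in PS and derivative, and MFNG 26.2 CPM in Blood cells.

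HES7, a clock gene, was 12.9 CPM in PS and derivative and at most 1.14 CPM elsewhere, in the class that also had the highest DLL3. HEY2 was 13.2 CPM there. It passed as higher in Mesoderm (2.77 ± 0.87) and Extraembryonic Mesoderm (2.26 ± 0.67), and as lower in 1 other class. In E22 alone HEY2 passed in neither Mesoderm (1.37, edgeR adjusted p = 0.236) nor Extraembryonic Mesoderm (1.13, 0.369). HEY2 fell over all cells (slope -0.34 ± 0.12, edgeR adjusted p = 0.0335). PS and derivative was almost only of E16, and the part of class shares in this fall was not tested. HES6 was 18.7 CPM in Neural ectoderm, and HES5, a common target in neural progenitors and one of the Neural ectoderm markers, was listed at or near 0 in every class (at most 0.14 CPM, in PS and derivative). HES2 was 62.5 CPM in STB. HEYL was higher in Extraembryonic Mesoderm (2.42 ± 0.53) and EXMC (2.24 ± 0.52). In E22 alone the Extraembryonic Mesoderm difference of HEYL was 1.78 and did not pass (edgeR adjusted p = 0.0787).

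**Figure D5:**
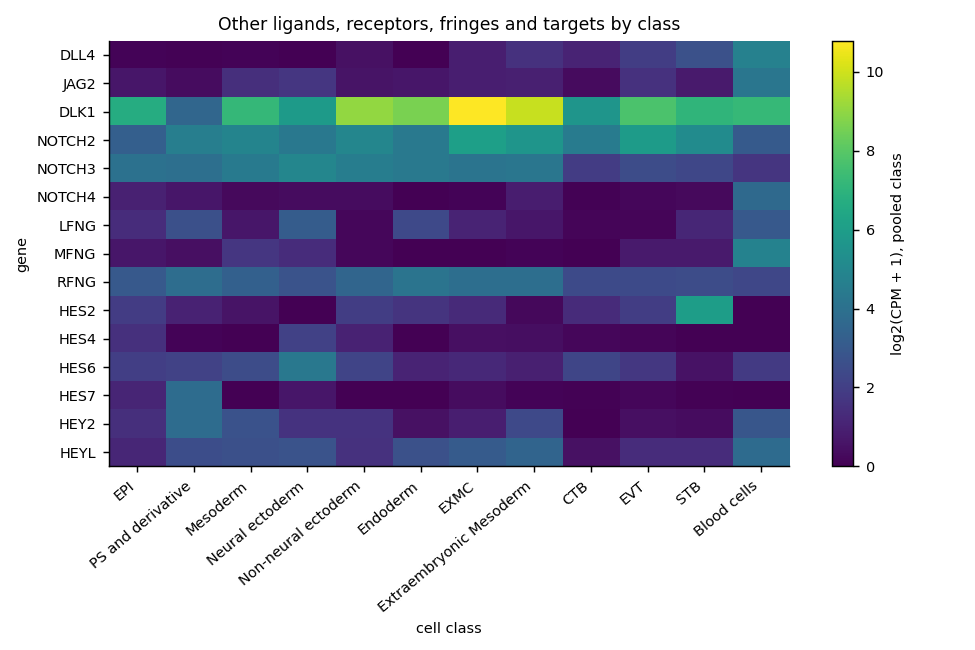
Pooled class levels of 15 other ligands, receptors, fringes and targets as log2(CPM + 1), genes in rows and the 12 classes in columns. DLK1 is brightest in EXMC (1766 CPM), HES7 in PS and derivative (12.9 CPM) and HES2 in STB (62.5 CPM).

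Over the list as a whole, 38 other pathway genes were tested in the contrasts. In CTB 9 were lower and 1 higher, where 30.7% of all genes passed, with a median difference of -0.64 against -0.02 over all genes, and the 6 members had a median of -2.37. The 1 gene higher in CTB was NEURL1 (2.34 ± 0.46), a ubiquitin ligase of ligand endocytosis, which was 234 CPM in STB. In EVT 7 were higher and 2 lower, beside 27% of all genes (medians 0.23 and 0.02), and ADAM10, ADAM17, NCSTN and PSENEN, which code for proteins of receptor cleavage, were among them with differences of 0.44 to 1.16. In EXMC 9 were higher and none lower, beside 25.2% of all genes (medians 0.30 and 0.12), and RBPJ, the DNA-binding partner of the cut receptor, was among them (0.53 ± 0.12). In Extraembryonic Mesoderm 7 were higher and 2 lower, beside 22% of all genes. These 4 shares of the list lie near those of all genes. The embryonic classes had 0 to 2 calls each. Over all cells 34 other genes were tested for a day slope, of which DLK1, NOTCH2 (0.09 ± 0.03) and APH1B (0.18 ± 0.04) rose and HEY2 fell, a smaller share than the 18.5% of all genes. Summed per embryo, none of these 4 passed, since edgeR then called 0 genes over all cells (1543 at an unadjusted p under 0.05).

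Correlations over the 46 sums of class and embryo with at least 10 cells are given as descriptions, since sums of 1 embryo share libraries and those of 1 class share a definition. On log2(CPM + 1), HES1 had r = 0.64 (Spearman's rho = 0.58) with NOTCH3, 0.47 (0.45) with JAG1, 0.42 (0.46) with NOTCH2, 0.35 (0.36) with DLL1, 0.35 (0.33) with DLL3 and 0.14 (0.13) with HEY1. DLL1 had r = 0.47 (0.37) with DLL3 and 0.43 (0.44) with JAG1. HEY1 and DLL3 had r = -0.09 (-0.02). Of 7740 genes with a mean of at least 10 CPM, those most alike in pattern to DLL3 were AUTS2 (r = 0.75, rho = 0.74), TNNI3 (0.74, 0.73) and RBPMS2 (0.74, 0.70). For HES1 they were MEIS2 (r = 0.85, rho = 0.85), TSHZ3 (0.82, 0.82) and SCRN1 (0.81, 0.77), and for HEY1 TBX3 (0.68, 0.65), RASAL2 (0.66, 0.53) and USP8 (0.63, 0.51). For JAG1 they were PCBP4 (r = 0.74, rho = 0.75), ZFP36L2 (0.66, 0.65) and UACA (0.64, 0.64), and for DLL1 a gene with an identifier only (0.75, 0.69), TUBB2B (0.67, 0.58) and TRIM2 (0.65, 0.65). For NOTCH1 no gene is named, since its counts are too sparse for a pattern. Over 112 sums of class and library, only 2 of the 18 gene pairs recurred, MEIS2 with HES1 and RBPMS2 with DLL3.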

How the data were processed

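Single-cell RNA libraries of 9 embryos were deposited as one table of whole-number counts per gene and cell, with a cell annotation by the authors. Reads were trimmed with cutadapt 1.15, aligned with STAR 2.6.0a and counted with HTSeq 0.10.0, per the submitters' processing notes. The genome build, the treatment of molecular identifiers and of doublets, and the strand setting are not stated in these sources, so a count may be a read or a molecule. Cells were tied to libraries by the batch number in their names, and the day of a library comes from its labels.

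The deposited counts were summed over cells of a class in a library (at least 10 cells), and divided by the summed total for CPM. Day trends and class contrasts (library as a term) used edgeR 4.0.16 in R 4.3.3 with its quasi-likelihood test, TMM scaling, the tool's filter on low counts and Benjamini-Hochberg adjustment over all genes. Alternatives used DESeq2 1.42.0 and limma 3.58.1. Libraries of one embryo entered as separate samples, so p-values measure the spread between libraries, which may be technical. Both fits were run on simulated counts with known differences. These counts held no effect of embryo, so the runs do not cover libraries that share an embryo. Levels, shares and correlations were computed in Python 3.11.15 with pandas 2.3.3 and scipy 1.17.1.

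The members, gene lists and tests were chosen with earlier results of these data known. All 6 members are described. Of the other pathway genes, ligands, receptors, fringes and targets could be named with values, and the rest where they passed a trend or a contrast. For pattern likeness the 3 genes with the highest r per member were taken. The counts compared across alternatives were defined after the trends had been seen. The values of 1 gene of the pathway list are not reported here.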

Additional observations from a re-analysis of the deposited data

Results flagged for a closer look

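Within a day, the highest or the lowest library, whichever had the wider gap, was set against the others by Dixon's ratio. This was done for 122 groups of gene and day, within a class or over all cells, of 4 to 7 libraries. In 23 groups a library lay apart at the 95% level, each time the highest. Chance gives about 5% for normally distributed values, which sparse counts need not follow. NOTCH1 within classes was left out because of its near-zero counts. Many of these values rest on few counts in few cells.

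Over all cells of E22, DLL1 was 17.4 CPM in library 30 (the others 2.57 to 5.52), HEY1 83.3 CPM in library 32 (15.2 to 20.99) and NOTCH1 2.00 CPM in library 29 (0 to 0.527). For DLL1 within classes, single libraries stood at 2.59 CPM in CTB at E20 (library 37), 3.44 CPM in EVT at E20 (library 34), 1.79 CPM in EVT at E23 (library 9), 6.70 CPM in EXMC at E23 (library 10), 7.35 CPM in EXMC at E25 (library 14), 25.5 CPM in Mesoderm at E22 (library 33) and 22.2 CPM in Non-neural ectoderm at E23 (library 9). The other libraries of these groups reached at most 5.71 CPM.

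DLL3 was 5.56 CPM in CTB at E23 (library 13), 4.43 CPM in CTB at E25 (library 14), 5.68 CPM in EVT at E18 (library 40), 4.18 CPM in EVT at E23 (library 8) and 1.42 CPM in Non-neural ectoderm at E23 (library 8), with the others at 1.58 CPM or less. JAG1 was 5.39 CPM in CTB at E20 (library 37), 8.12 CPM in CTB at E23 (library 13) and 57.3 CPM in Extraembryonic Mesoderm at E21 (library 24, others 2.93 to 13.9).

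HES1 in Extraembryonic Mesoderm was 170 CPM in library 34 of E20 (others 41.1 to 86.1) and 239 CPM in library 18 of E21 (others 121 to 154). HEY1 was 3.62 CPM in CTB at E25 (library 16), 42.7 CPM in EVT at E23 (library 11, others 5.37 to 14.1) and 26.8 CPM in Extraembryonic Mesoderm at E22 (library 32, others 4.91 to 12.9).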

How the results depend on the processing

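No paired analysis was possible because each library has a batch number of its own, so that no replicate number is shared between days; the class contrasts compare classes within libraries. Every day after E16 is 1 embryo, and EPI, Endoderm and Blood cells had no library with enough cells for a test. Leaving out each library in the edgeR class contrasts was not run, since it exceeds the limit on refits, and limma-voom was used instead; contrasts with at least 20 cells per sum could not be fitted. The fits without E20, the levels without the top cell and the limma-voom contrasts were chosen after seeing the data.

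Of the members with a day trend over all cells, 1 passed, and 0 when libraries were summed per embryo. In CTB 0 passed, and 1 with at least 20 cells and 1 without E16 (0 to 1 leaving out each library). In EVT 0 passed, and 1 with DESeq2 and 1 with at least 20 cells. In Extraembryonic Mesoderm leaving out each library gave 0 to 1. The main fit made 18 contrast calls, and limma-voom without each library gave 20 to 24. In E22 alone, where 4 classes entered, 2 calls were made, both of HEY1. That in Non-neural ectoderm was higher, as in the main fit. That in Extraembryonic Mesoderm was lower, opposite to the main fit. In E22 alone HEY1 turned to -1.43 in Extraembryonic Mesoderm and -0.65 in Mesoderm, and JAG1 to -0.57 in Extraembryonic Mesoderm. The cause was not tested. Of the 6 genes, 4 kept the class with the highest pooled level by the mean over library sums (JAG1 and NOTCH1 changed) and 3 without the top cell. DLL3 in Non-neural ectoderm, not called by edgeR, was lower with DESeq2 (-2.76, adjusted p = 0.0306) and limma-voom (-2.41). DLL3 in Extraembryonic Mesoderm, not called in the main fit, was higher with DESeq2 (1.43, adjusted p = 0.0315) and limma-voom (1.18). It also passed with edgeR without E16 (1.32, adjusted p = 0.00104). The JAG1 call in Extraembryonic Mesoderm was lost without the filter (edgeR adjusted p = 0.0538). It was also lost in 3 of 41 limma-voom fits that left out 1 library.

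Counts over all genes moved more. All-cell trends fell from 2435 genes to 1087 without E16, 1009 with the library code as a term, 197 with limma-voom and embryo as a block, and 0 per embryo by edgeR (1543 at an unadjusted p under 0.05). In EXMC 190 genes became 1008 without a filter, 472 with the code, 388 with DESeq2, 352 without E20, 339 with at least 20 cells, 126 with limma-voom, 57 without E16 and 0 per embryo by edgeR (481 unadjusted). In CTB 363 became 2445 with at least 20 cells, 1200 without a filter, 795 with DESeq2, 741 without E16, 240 without E20, 83 with the code, 12 with limma-voom and 0 per embryo by edgeR (798 unadjusted). In EVT 677 became 2047, 1378, 1175, 276, 230, 63 and 10 without a filter, with at least 20 cells, with DESeq2, without E20, with limma-voom, with the code and per embryo. In Extraembryonic Mesoderm 248 became 707 with DESeq2, 532 with at least 20 cells, 93 with limma-voom, 68 with the code and 0 per embryo by edgeR (930 unadjusted). The code is the one of the labels, and the cell names give another for libraries 8 to 13, so the fits with the code hold only if the labels are right. The 18866 contrast calls became 5188 in E22 alone and 15190 to 26475 otherwise.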
